A study of Mus musculus with 21 samples.

Results

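miR-9, miR-338 and miR-153 are microRNAs best known from neurons and glia, and all 3 were counted at low levels in the left ventricle of the mouse heart. The rows described here are the arms of these 3 hairpins in the deposited count table: 6 of 1903 named microRNAs. Of the 6, 5 had a count in any library (against 832 microRNAs in the whole table), and 4 had enough counts to be tested among 561 microRNAs: miR-9-5p, miR-338-3p, miR-338-5p and miR-153-3p. The 3 hairpins were selected on measured values, the lower levels of miR-9-5p and miR-338-3p in TAC than in Sham in these same libraries. The comparison of TAC with Sham is therefore given as a description, without a p-value.

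Small RNA was sequenced from heart muscle of the left ventricle in 21 mice of the strain C57BL/6J. In TAC (transverse aortic constriction), a surgical narrowing of the aorta loads the left ventricle with pressure, and Sham is the control operation. The groups were Sham without drug (n = 5), TAC without drug (n = 5), TAC+PDE5A-I (n = 5), which received sildenafil, and TAC+PDE9A-I (n = 6), which received PF-04449613. Sildenafil inhibits the phosphodiesterase PDE5A and PF-04449613 the phosphodiesterase PDE9A, enzymes that both break down cyclic GMP. Drug treatment began 1 week after surgery and lasted 4 weeks, and each library came from 1 mouse with its own ear tag. No group received a drug after sham surgery. The labels give no age, sex, dose or vehicle.

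A microRNA is cut from a hairpin precursor, whose 5p and 3p arms can each be loaded into Argonaute, and it represses messenger RNAs that pair with its seed near the 5′ end. miR-9 is made in neural progenitors and neurons, where it represses the neuronal gene silencer REST and the progenitor factor Hes1, and in cultured cardiac myocytes it has been described to repress myocardin. miR-338 lies in an intron of Aatk, a kinase gene of the nervous system, and its 3p arm is known, together with miR-219, from the maturation of oligodendrocytes. miR-153 lies in an intron of Ptprn2, which encodes a protein of dense-core secretory vesicles, and is known from neurons and neuroendocrine cells, with the messenger RNA of alpha-synuclein among its targets.

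The mature sequences, shown because seed and base composition bear on what follows, are those of RefSeq for GRCm38.p6, read 5′ to 3′ with the seed (bases 2 to 8) in capitals:
miR-9-5p: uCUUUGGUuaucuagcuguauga
miR-9-3p: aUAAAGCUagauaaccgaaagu
miR-338-3p: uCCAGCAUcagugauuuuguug
miR-338-5p: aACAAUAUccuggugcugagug
miR-153-3p: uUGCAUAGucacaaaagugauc
miR-153-5p: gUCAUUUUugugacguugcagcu
The 6 seeds all differ, and no other microRNA of the count table with a sequence in RefSeq carries any of them. GC content was 34.8% for miR-9-5p, 31.8% for miR-9-3p, 36.4% for miR-153-3p and 43.5% for miR-153-5p. In miR-338 the abundant 3p arm held 40.9% GC and the rarer 5p arm 45.5%.

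The arms come from 5 loci. Mir9-1 (chr3:88215598-88215686, plus strand) lies in an intron of the long noncoding RNA Gm3764. Mir9-2 (chr13:83738814-83738885, plus strand) lies in an exon of the long noncoding RNA C130071C03Rik, and Mir9-3 (chr7:79505264-79505353, plus strand) in an intron of its host transcript Mir9-3hg. The mature arms of these 3 miR-9 loci are identical, so their counts cannot be told apart. Mir338 (chr11:120014765-120014862, minus strand) lies in an intron of Aatk on the same strand. Mir153 (chr12:117250817-117250885, plus strand) lies in an intron of Ptprn2, with the antisense gene Gm5441 on the other strand. The overlapping genes are those of GENCODE M21 on GRCm38.

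Heart muscle microRNAs were present in all groups: in Sham the heart muscle microRNA miR-133a-3p stood at 152729 ± 15131 CPM (SD, n = 5), which is the count relative to the library total after TMM scaling, and miR-1a-3p at 6531 ± 1557 CPM. Under sildenafil they stood at 189579 ± 50629 and 395 ± 482 CPM (n = 5). Against these, miR-338-3p, miR-9-5p, miR-153-3p and miR-338-5p held ranks 149, 216, 255 and 375 among the 561 tested microRNAs by mean level in Sham. A set of 6 libraries stood apart from the rest, namely all 5 TAC+PDE5A-I libraries and TAC+PDE9A-I 5. They held 1205417 to 3969716 counts against 3766517 to 8497792 in the other 15. Among microRNAs with a known sequence (55.8% of all counts), their counts had a GC content of 46.02% to 48.6%, against 44.6% to 45.3% in the other 15. The first principal component took 50.3% of the variance and separated the same 6 libraries from the 15. Since every sildenafil library was among the 6, sildenafil and this feature of the libraries cannot be told apart in TAC+PDE5A-I. Results on that group are therefore given with and without a correction for GC content, and those on TAC+PDE9A-I with and without TAC+PDE9A-I 5.

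miR-9-5p was lower after pressure overload and lowest under sildenafil. In the 5 Sham libraries it measured 27.0, 20.5, 35.6, 37.3 and 20.5 CPM, a mean of 28.2 ± 8.01 (SD, n = 5). In TAC it measured 17.9, 13.05, 10.02, 11.6 and 8.28 CPM, a mean of 12.2 ± 3.65 (n = 5). The highest TAC library lay below the lowest Sham library, so the groups did not overlap, which was also true of 16.9% of the 561 microRNAs in this comparison. TAC was 2.31-fold lower than Sham, a log2 fold change of -1.21 ± 0.31 (SE). The median over all tested microRNAs was -0.08. Of the 561 microRNAs 0.178% were called lower in TAC and 2.14% higher at an adjusted p under 0.05. Since this comparison chose the hairpins, no call is given for their arms. For miR-9-5p the log2 fold change was -1.11 ± 0.51 with the GC correction and -1.17 in a fit of the 15 other libraries. Mice with ear tags in the 100s (2 TAC, 3 Sham) differed by -0.81 and those in the 600s (2 and 2) by -1.46 on the log2 scale. In these bulk samples, fewer cells of a type and less of the microRNA per cell cannot be told apart.

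Under sildenafil miR-9-5p measured 3.89, 10.1, 5.80, 4.04 and 5.97 CPM, a mean of 5.95 ± 2.49 (n = 5), from 80 counts in all. TAC+PDE5A-I 2 lay within the range of TAC and the other 4 libraries below it. The fall from TAC was -1.01 ± 0.32 on the log2 scale (95% interval -1.69 to -0.33; edgeR, adjusted p = 0.0172), with a median of -0.31 over all tested microRNAs. This call turned with the GC correction, to a rise of 1.64 ± 0.57 (adjusted p = 0.0343), and did not pass with upper-quartile scaling (-0.54, adjusted p = 0.19), with ear tag range as a covariate (-0.83, adjusted p = 0.0639) or without TAC 1 (-0.83, adjusted p = 0.0511). Within the 500s (2 and 1 mice) and the 600s (3 and 2) of the ear tags, the log2 differences were -0.64 and -0.87. Without TAC+PDE5A-I 2 the fall was -1.56 ± 0.33.

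Under PF-04449613 miR-9-5p ranged from 9.37 to 24.3 CPM with a median of 12.04 (mean 14.0 ± 5.65, n = 6). Its lowest library was TAC+PDE9A-I 5 and its highest TAC+PDE9A-I 6, and the range overlapped that of TAC. The log2 difference from TAC was 0.21 ± 0.30 (95% interval -0.41 to 0.83; edgeR, adjusted p = 0.991), 0.30 ± 0.31 without TAC+PDE9A-I 5 and 0.94 ± 0.52 (adjusted p = 0.822) with the GC correction. Against Sham the difference was -0.999 ± 0.30 (adjusted p = 0.0976), which missed the threshold. It passed with DESeq2 (adjusted p = 0.0379) and without TAC+PDE9A-I 6 (adjusted p = 0.0313), and was -0.18 ± 0.51 (adjusted p = 0.942) with the GC correction. By mean level the order was Sham, TAC+PDE9A-I, TAC and TAC+PDE5A-I, and the middle pair did not differ beyond its spread.

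**Figure D1:**
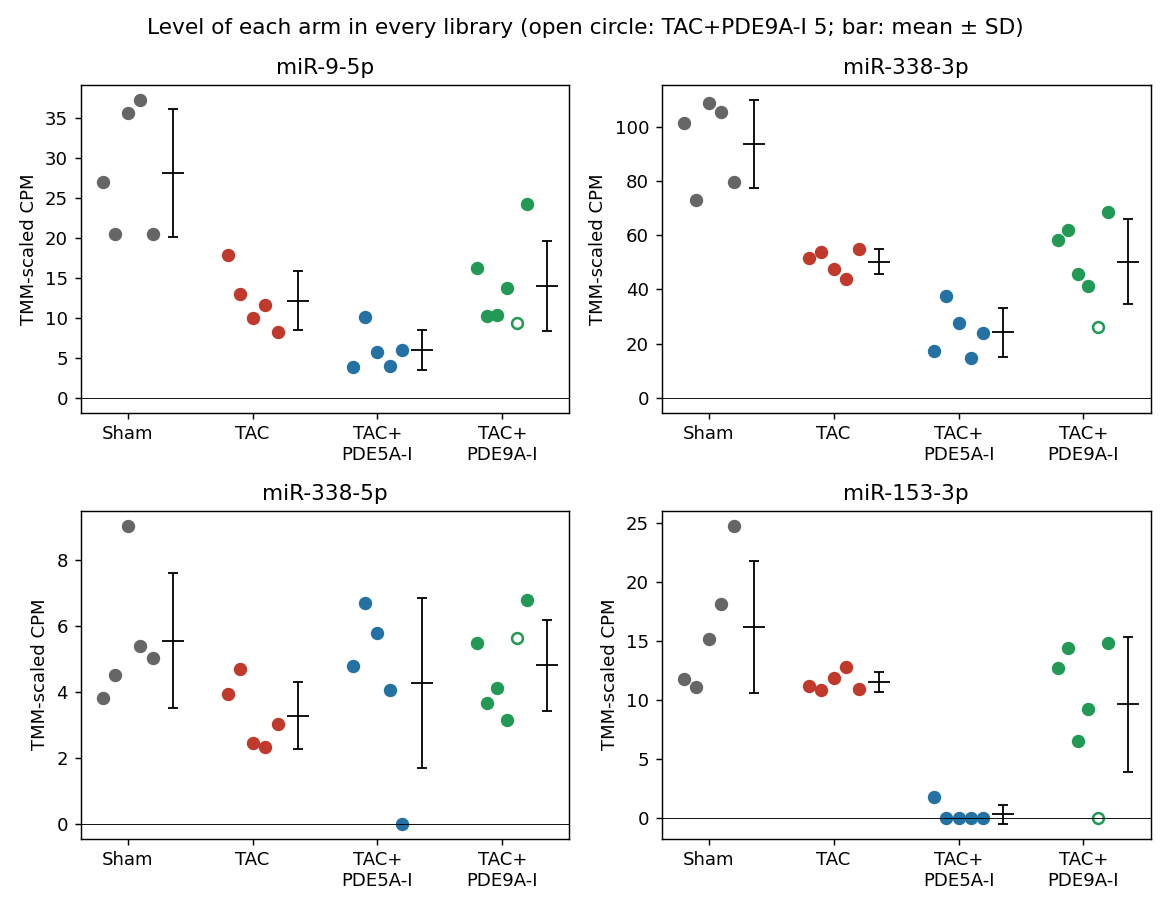
Level of the 4 tested arms in TMM-scaled CPM (vertical axes, each with its own scale) in every library of the 4 groups. Points are libraries, the open circle is TAC+PDE9A-I 5 and the bar is the group mean ± SD. For miR-9-5p and miR-338-3p no TAC library reaches the lowest Sham library, and for miR-153-3p 4 of 5 TAC+PDE5A-I libraries are at 0.

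The other arm of the hairpin, miR-9-3p, was too rare to test, with 68 counts in 8 of 21 libraries. Sham libraries held 9, 0, 5, 9 and 8 counts. TAC held 0, 0, 0, 8 and 0, and all 5 TAC+PDE5A-I libraries held 0. The 6 TAC+PDE9A-I libraries held 5, 0, 0, 10, 0 and 14. A count was thus present in 4 of 5 Sham libraries and 1 of 5 TAC libraries. The pooled rate in TAC was 0.220 of that in Sham (95% interval 0.0873 to 0.489, for counting error only). A count of 0 allowed up to 0.671 to 2.24 CPM in TAC+PDE5A-I, so a level like that of Sham, 1.31 ± 0.890 CPM, was not detectable in all of them.

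miR-338-3p was the most abundant arm and followed the same order of groups at its ends. Sham libraries measured 101, 72.9, 109, 106 and 79.7 CPM, a mean of 93.7 ± 16.2 (n = 5). TAC libraries measured 51.6, 53.8, 47.4, 43.8 and 54.8 CPM, a mean of 50.3 ± 4.59 (n = 5). All 5 TAC libraries lay close together and below the lowest Sham library, where 16.9% of the 561 microRNAs did not overlap in either direction. TAC was 1.86-fold lower, a log2 fold change of -0.90 ± 0.25, and -0.89 ± 0.33 with the GC correction. It was -0.85 in the fit of the 15 other libraries. Within the 100s and the 600s of the ear tags the differences were -0.81 and -0.90.

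Sildenafil libraries measured 17.4, 37.6, 27.5, 14.8 and 23.9 CPM of miR-338-3p, a mean of 24.2 ± 9.004 (n = 5). Every one was below every TAC library, as was the case in either direction for 33.9% of all tested microRNAs. The fall from TAC was -1.05 ± 0.26 on the log2 scale (95% interval -1.58 to -0.51; edgeR, adjusted p = 0.00387). With the GC correction the sign turned, to 0.82 ± 0.34 (adjusted p = 0.0715), and with upper-quartile scaling the fall did not pass (-0.57, adjusted p = 0.0525). The ear tag ranges gave -0.88 in the 500s and -1.18 in the 600s.

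With PF-04449613 miR-338-3p ranged from 26.2 to 68.5 CPM, with a median of 52.0 (mean 50.3 ± 15.6, n = 6). The lowest value was that of TAC+PDE9A-I 5, which lay within the range of the sildenafil libraries, and the other 5 ran from 41.2 to 68.5 CPM. The difference from TAC was 0.00 ± 0.24 on the log2 scale (95% interval -0.49 to 0.50; edgeR, adjusted p = 0.997), 0.13 ± 0.22 without TAC+PDE9A-I 5 and 0.40 ± 0.32 with the GC correction. All 6 libraries lay below the lowest Sham library, which was so for 3.92% of the 561 microRNAs in either direction. The difference from Sham was -0.89 ± 0.24 (adjusted p = 0.0603). It passed with DESeq2 (adjusted p = 0.0169), when the 15 other libraries were fitted by themselves (-0.71, adjusted p = 0.00981) and without TAC+PDE9A-I 6 (adjusted p = 0.0478), and was -0.49 ± 0.32 (adjusted p = 0.582) with the GC correction. TAC and TAC+PDE9A-I held the middle of the order with nearly the same mean.

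miR-338-5p, cut from the other side of the same hairpin, was rare, with at most 9.05 CPM in any library, and its groups overlapped in every comparison. The hairpin, with both mature arms in capitals, the 5p arm on the left, is shown here because the 2 arms, both lower in TAC than in Sham, parted in the libraries that stood apart:
miR-338 hairpin: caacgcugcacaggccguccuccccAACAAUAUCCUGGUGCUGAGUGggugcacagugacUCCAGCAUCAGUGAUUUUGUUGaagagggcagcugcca
Sham libraries measured 3.81, 4.51, 9.05, 5.40 and 5.03 CPM of miR-338-5p (mean 5.56 ± 2.04, n = 5), and TAC libraries 3.93, 4.71, 2.43, 2.32 and 3.01 CPM (3.28 ± 1.02, n = 5). The groups overlapped, and the log2 fold change was -0.76 ± 0.50. Sildenafil libraries measured 4.79, 6.71, 5.80, 4.04 and 0 CPM (4.27 ± 2.59, n = 5). They lay on both sides of TAC, with a log2 difference of 0.41 ± 0.51 (95% interval -0.66 to 1.48; edgeR, adjusted p = 0.544), and of 1.34 ± 0.54 (adjusted p = 0.0651) with the GC correction. Under PF-04449613 the arm ranged from 3.15 to 6.78 CPM with a median of 4.80, and the difference from TAC was 0.54 ± 0.49 (95% interval -0.47 to 1.56, adjusted p = 0.991).

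The share of the 5p arm in the counts of the miR-338 hairpin showed the difference between the arms within each library, free of scaling. It was 3.62% to 9.01% in the 15 other libraries, with a median of 5.83% in Sham and 5.21% in TAC. In the sildenafil libraries it was 21.6%, 15.2%, 17.4%, 21.4% and 0%, the last from 0 of 32 counts, which allows up to 10.9% (exact binomial, 95%). In TAC+PDE9A-I 5 it was 17.6% (exact 95% interval 8.40 to 30.9), above all 15 other libraries. So 5 of the 6 libraries that stood apart had a higher 5p share than each of the rest. The 5p arm has the higher GC content, and it stayed the rarer arm in every library. The part of base composition in the higher 5p share was not tested.

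**Figure D2:**
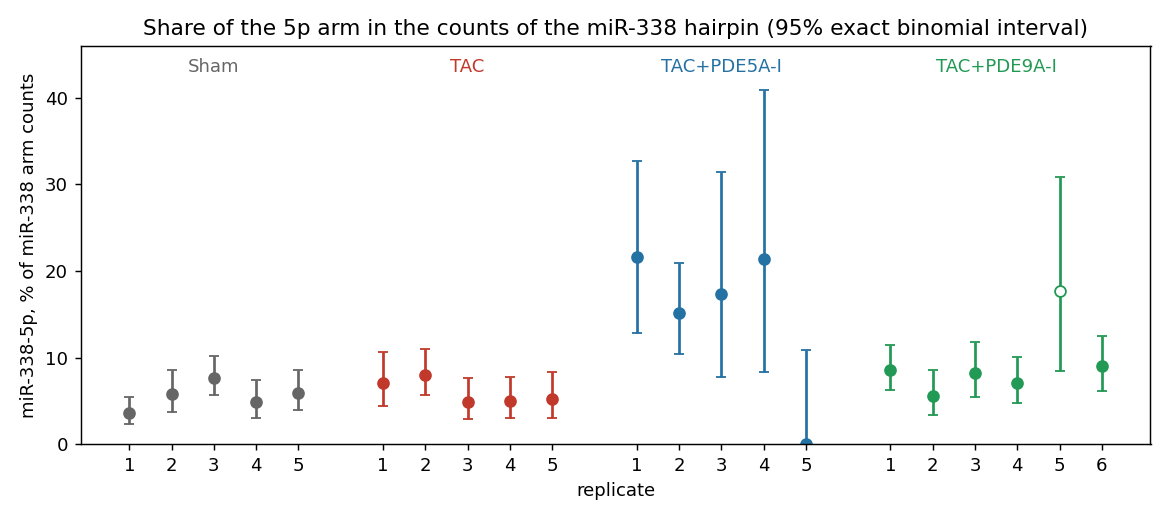
Share of miR-338-5p in the counts of both miR-338 arms (percent, vertical axis) in each library, ordered by group and replicate (horizontal axis). Points carry 95% exact binomial intervals, which cover counting error only, and the open circle is TAC+PDE9A-I 5. The shares of the 15 other libraries lie between 3.62% and 9.01%, and 5 of the remaining 6 lie between 15.2% and 21.6%.

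miR-153-3p differed most under sildenafil, where it was nearly absent. Sham libraries measured 11.8, 11.1, 15.2, 18.1 and 24.8 CPM, a mean of 16.2 ± 5.56 (n = 5). TAC libraries measured 11.2, 10.9, 11.9, 12.8 and 10.9 CPM, a mean of 11.5 ± 0.820 (n = 5). The TAC values lay close together and overlapped the lower Sham values. TAC was 1.401-fold lower, a log2 fold change of -0.49 ± 0.66, and without Sham 5, the highest Sham library, the fitted difference was -0.10. The differences were -0.18 within the 100s of the ear tags and -0.82 within the 600s. In the fit of all 21 libraries the log2 fold change of miR-153-3p was smaller than its SE. That SE also draws on the sildenafil libraries, where the arm was nearly absent. The fold change was -0.44 ± 0.24 in the fit of the 15 other libraries and -0.36 ± 0.22 with the 2 groups alone.

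In the sildenafil libraries miR-153-3p measured 1.796, 0, 0, 0 and 0 CPM, 6 counts in all against 384 in the 5 TAC libraries. Every sildenafil library lay below every TAC library. The fall was -4.55 ± 0.88 on the log2 scale (95% interval -6.39 to -2.71; edgeR, adjusted p = 0.0013), a fitted 23.4-fold. The pooled counts gave a 22.2-fold lower rate, at 0.0450 of that in TAC (95% interval 0.0164 to 0.0988, for counting error only). The 6 counts all came from TAC+PDE5A-I 1. Without it the other 4 libraries were all at 0. With 3 counts per library as the limit, which takes each 0 as no count, the level was at least 6.50-fold lower than in TAC. Where a 0 stands for 1 count, the bound is weaker. With the GC correction the fall was -2.76 ± 0.72 (adjusted p = 0.00659), smaller but past the threshold. It also passed with each of the other 18 alternatives run.

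TAC+PDE9A-I 5, a library without sildenafil that shared the low depth and high GC content, had 0 counts of miR-153-3p as well, which allows up to 1.87 CPM. The other 5 TAC+PDE9A-I libraries ran from 6.54 to 14.9 CPM (mean 11.6 ± 3.58, n = 5), and the mean of all 6 was 9.64 ± 5.71. The difference from TAC was -0.24 ± 0.63 (95% interval -1.55 to 1.07; edgeR, adjusted p = 0.991), and 0.00 when the 15 other libraries were fitted alone. Against Sham it was -0.73 ± 0.63 (adjusted p = 0.893). By mean level the order was Sham, TAC, TAC+PDE9A-I and TAC+PDE5A-I, and the neighbours among the upper 3 did not differ beyond their spread. miR-153-5p, the other arm, had 0 counts in all 21 libraries, which allows up to 0.338 to 2.24 CPM.

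**Figure D3:**
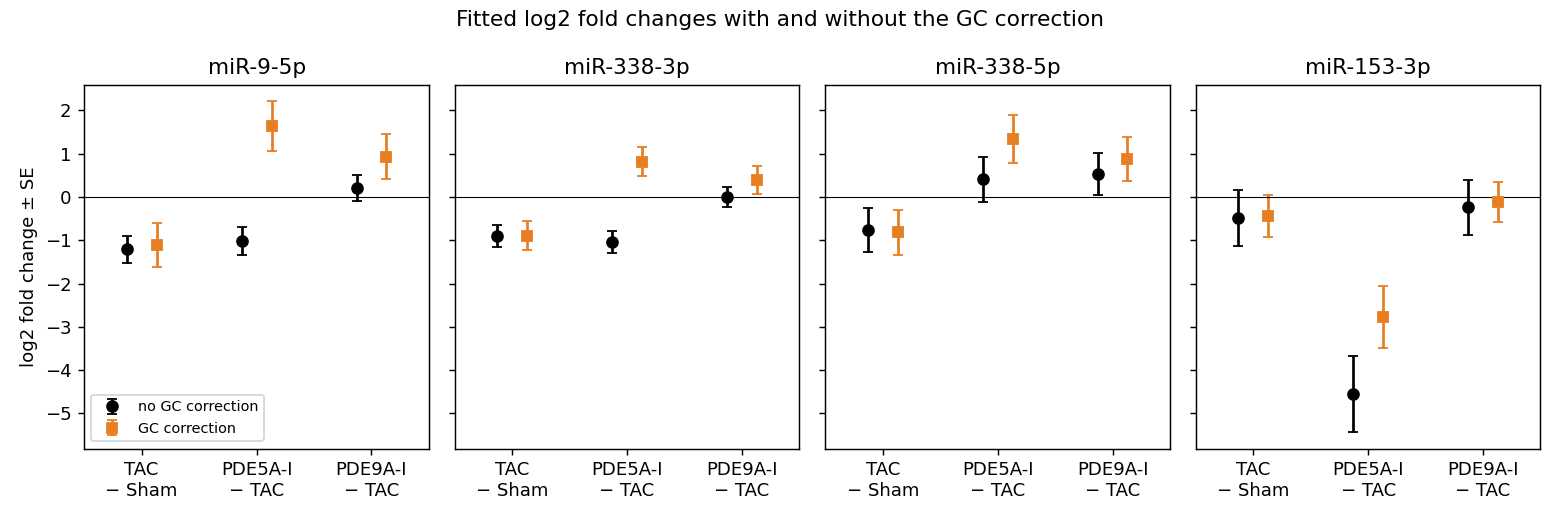
Fitted log2 fold changes ± SE (vertical axis) of the 4 tested arms for TAC minus Sham, TAC+PDE5A-I minus TAC and TAC+PDE9A-I minus TAC (horizontal axis). Black circles are without and orange squares with the GC correction. For TAC minus Sham the values nearly coincide, for TAC+PDE5A-I minus TAC those of miR-9-5p and miR-338-3p change sign, and that of miR-153-3p moves from -4.55 to -2.76.

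Counted together, 3 of the 4 tested arms fell under sildenafil against TAC, where 24.8% of all 561 microRNAs fell, 21.6% rose and 46.3% were called in either direction. The 2 arms whose groups did not overlap, miR-338-3p and miR-153-3p, stand beside the 33.9% of all microRNAs given above. None of the 4 was called under PF-04449613 against TAC, where 0% of the 561 were called by edgeR, 16 had an unadjusted p under 0.05, and DESeq2 called 1. Against Sham, 3 of 4 arms fell under sildenafil, where 23.5% of all microRNAs fell, 19.1% rose and 42.6% were called in either direction. The log2 fold changes were -2.22 ± 0.33 for miR-9-5p, -1.94 ± 0.26 for miR-338-3p and -5.04 ± 0.89 for miR-153-3p (edgeR, adjusted p = 0.000113, 6.97e-05 and 0.000395). None of these 3 arms overlapped between the groups, as for 32.8% of all microRNAs. Corrected for GC content they became 0.52, -0.07 and -3.20, and miR-153-3p alone passed (adjusted p = 0.522, 0.9 and 0.00257). Under PF-04449613 0 of 4 passed against Sham, where 0.713% of all microRNAs fell, 1.25% rose and 1.96% were called in either direction. The drug comparisons share the TAC or the Sham libraries with TAC against Sham, so their values are not independent of it.

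The 2 drugs were compared directly at the same treatment time. The labels give no doses. Over the 4 arms and all 561 microRNAs, 3 arms were lower under sildenafil than under PF-04449613, where 19.6% of all microRNAs were lower and 34.8% differed in either direction. The differences were -1.22 ± 0.32 for miR-9-5p (95% interval -1.88 to -0.56; edgeR, adjusted p = 0.0114), -1.05 ± 0.25 for miR-338-3p (-1.57 to -0.53, adjusted p = 0.00687) and -4.31 ± 0.87 for miR-153-3p (-6.12 to -2.51, adjusted p = 0.0032). For miR-338-5p the difference was -0.13 ± 0.49 (-1.16 to 0.90, adjusted p = 0.856), an interval wide enough to hold a 2-fold change. The groups overlapped in all 4 arms, where 1.96% of all microRNAs did not overlap, and in miR-9-5p, miR-338-3p and miR-153-3p the only overlapping PF-04449613 library was TAC+PDE9A-I 5. Without that library the differences were -1.43 ± 0.32, -1.32 ± 0.23 and -4.62 ± 0.67 for the 3 arms called. With the GC correction they were 0.70, 0.42 and -2.65 (adjusted p = 0.42, 0.4 and 0.0243), so miR-9-5p and miR-338-3p changed sign and miR-153-3p alone passed. In a fit of these 2 groups alone none of the microRNAs tested passed (adjusted p = 0.0757 for each of the 3).

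Across the 21 libraries miR-9-5p and miR-338-3p varied together. Pearson's r of their log2 CPM was 0.929 over all 21 libraries, 0.850 over the 15 others and 0.710 after group means were removed. Over the 21 libraries each was the other's closest match among 302 microRNAs with a mean of at least 10 CPM. Both arms were selected as lower in TAC than in Sham. This shared step enters r over the 21 and over the 15 libraries, and so the closest match. The libraries also share their depth and scaling, so the values describe these data only. For miR-9-5p the next closest were miR-30e-3p (r = 0.824, or 0.754 over the 15) and miR-1b-5p (0.810, or 0.595). For miR-338-3p they were miR-1b-5p (0.901, or 0.686) and miR-29c-3p (0.894, or 0.880, above miR-9-5p over the 15). With group means removed miR-1b-5p was closer to miR-338-3p (0.781) than miR-9-5p was. The levels most like those of miR-153-3p were those of miR-101c (0.966), miR-32-5p (0.9498) and miR-142a-5p (0.949), all with a GC content of 31.8% to 36.8%. Over the 15 other libraries these fell to 0.627, 0.537 and 0.310.

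**Figure D4:**
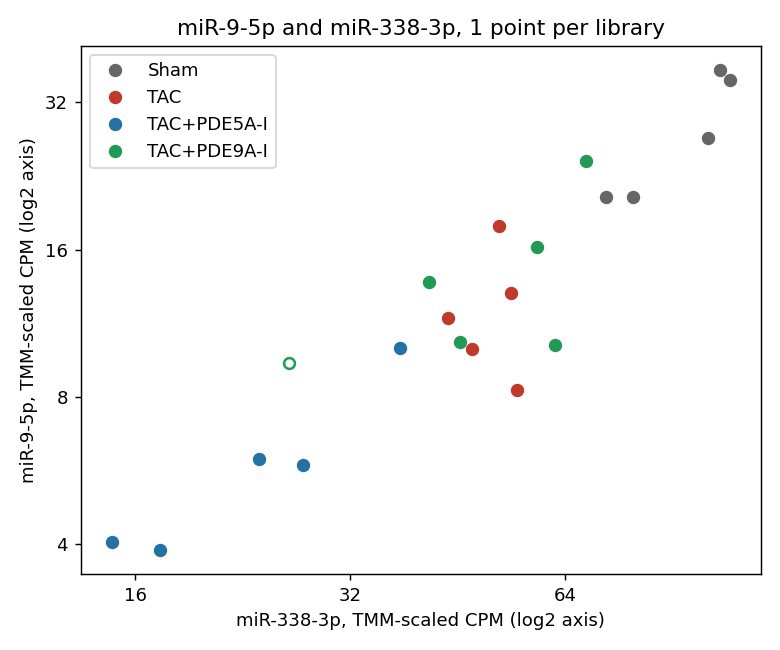
Level of miR-9-5p (vertical axis) against that of miR-338-3p (horizontal axis), both in TMM-scaled CPM on log2 axes, with 1 point per library coloured by group and an open circle for TAC+PDE9A-I 5. Sham libraries lie at the upper right and TAC+PDE5A-I libraries at the lower left, and TAC and TAC+PDE9A-I lie between them.

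Other microRNAs known from neurons and glia did not follow miR-9-5p as a group. Of a list of 33 names, 31 were in the table, 24 had a count and 20 were tested. miR-124, among the most neuron-specific of all microRNAs, had 0 counts on both arms in all 21 libraries. In TAC against Sham 0 of the 20 were called, by edgeR, with a median log2 fold change of 0.01 against -0.08 for all microRNAs, where 2.32% were called in either direction. With the 2 groups alone, where 98 of 507 microRNAs were called, 2 passed: miR-134-5p higher (0.76 ± 0.19, adjusted p = 0.014) and miR-219a-5p lower (-0.87 ± 0.23, adjusted p = 0.0231). The abundant members of the list are also made outside the nervous system: miR-128-3p measured 516 ± 65.0 CPM in Sham and 378 ± 24.0 CPM in TAC, and miR-132-3p 259 ± 37.4 and 356 ± 130 CPM (n = 5 each). The summed level of the list was 922 to 1126 CPM in Sham and 786 to 1197 CPM in TAC, so the ranges overlapped.

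miR-219a-5p, the partner of miR-338-3p in oligodendrocytes, had the same direction. It measured 7.62, 4.32, 6.99, 5.13 and 6.19 CPM in Sham (mean 6.05 ± 1.34, n = 5) and 3.53, 3.23, 2.58, 3.42 and 2.26 CPM in TAC (3.00 ± 0.557, n = 5). No TAC library reached the lowest Sham library, and 16.9% of the 561 microRNAs did not overlap in this comparison, in either direction. The log2 fold change of -1.01 ± 0.75 was not called in the fit of all libraries (edgeR, adjusted p = 0.690). Fitted on the 15 other libraries alone, an alternative chosen after the data had been seen, it was -0.95 ± 0.22 (adjusted p = 0.0126), where 81 of 555 microRNAs were called. Under sildenafil 4 of 5 libraries had no count of it, and neither had TAC+PDE9A-I 5, without sildenafil. A count of 0 allows up to 0.898 CPM in TAC+PDE5A-I 1, below the lowest TAC value. It allows up to 2.17, 2.02 and 2.24 CPM in TAC+PDE5A-I 3, 4 and 5, close to that value.

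Under sildenafil against TAC, 5 members of the neural list rose and 3 fell, 8 of 20 where 46.3% of all microRNAs were called (median 0.04 against -0.31 for all). Without TAC+PDE5A-I 3, 4 or 5 the 8 calls became 2, 1 and 2. The 5 that rose were miR-326-3p (1.01 ± 0.27, adjusted p = 0.00639), miR-138-5p (0.91 ± 0.24, 0.00571), miR-128-1-5p (1.00 ± 0.34, 0.022), miR-212-3p (0.79 ± 0.27, 0.0216) and miR-433-3p (1.15 ± 0.39, 0.0208). The 3 that fell were miR-219a-5p (-2.41 ± 0.86, 0.0285), miR-7a-1-3p (-2.38 ± 0.76, 0.0168) and miR-488-3p (-1.97 ± 0.72, 0.0314). Those that rose had a GC content of 54.5% to 66.7% and those that fell one of 38.1% to 42.9%. With the GC correction miR-138-5p, miR-212-3p and miR-433-3p still rose (adjusted p = 0.0192, 0.0287 and 0.0367), and none of the 3 that had fallen passed. A further 4, not called without the correction, were called higher with it, namely miR-128-3p (0.62, adjusted p = 0.0453), miR-132-3p (1.07, 0.0268), miR-132-5p (1.12, 0.00407) and miR-212-5p (0.86, 0.0467). miR-218-5p, of motor neurons, measured 25.2 ± 6.51 CPM in TAC and 5.84 ± 6.06 CPM under sildenafil (log2 -2.01 ± 0.83, adjusted p = 0.0548). With the GC correction its difference was -0.39 (adjusted p = 0.679), and TAC+PDE9A-I 5, without sildenafil, had 0 counts of it. Under PF-04449613 0 of 20 were called against TAC, with a median of 0.09.

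Against Sham, 6 members of the neural list rose under sildenafil and 4 fell, 10 of 20 where 42.6% of all microRNAs were called. Without TAC+PDE5A-I 3, 4 or 5 or Sham 1 the 10 calls became 5, 5, 6 and 6. To those called against TAC were added miR-132-3p, an activity-dependent microRNA of neurons (0.91 ± 0.28, adjusted p = 0.0131), and miR-134-5p, known from dendrites (0.86 ± 0.33, adjusted p = 0.0405), both higher, and miR-7a-5p, which was lower (-2.39 ± 0.80, adjusted p = 0.0215), while miR-128-1-5p was not called. Of these 10, miR-132-3p and miR-433-3p rose and miR-219a-5p fell with the GC correction (adjusted p = 0.00502, 0.0251 and 0.0358), and the other 7 did not pass. The other strands of the miR-132/212 pair, miR-132-5p and miR-212-5p, measured 14.3 ± 2.55 and 10.1 ± 3.22 CPM in Sham and 14.5 ± 6.40 and 14.96 ± 2.56 CPM under sildenafil. They were not called without the correction and were called higher with it (0.995 and 1.32, adjusted p = 0.00611 and 0.00458). Between the drugs, 3 of the 20 were higher and 2 lower under sildenafil, where 34.8% of all microRNAs were called, among them miR-219a-5p (-2.56 ± 0.85, adjusted p = 0.0264) and miR-326-3p (0.72 ± 0.26, adjusted p = 0.0341), and none of the 5 passed with the GC correction, which called miR-132-5p instead (0.86, adjusted p = 0.0283). The 5 calls became 0 with the 2 groups alone and without any 1 of TAC+PDE5A-I 3, 4 and 5 and TAC+PDE9A-I 2 and 4, and 8 without TAC+PDE9A-I 5. They became 2, 3 and 2 without TAC+PDE9A-I 1, 3 or 6.

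Markers of other cells of the heart moved with some of these differences. The 2 stromal microRNAs miR-199a-5p and miR-214-3p summed to 224 to 286 CPM in Sham and 657 to 1207 CPM in TAC, without overlap. Both rose. Of the 561 single microRNAs 16.9% did not overlap in this comparison, and 2.14% were called higher. The 2 endothelial markers summed to 32700 to 49225 CPM in Sham and 25780 to 42969 CPM in TAC, and neither was called. The 2 endocrine markers, miR-375-3p and miR-7a-5p, summed to 6.58 to 11.1 CPM in Sham and 4.72 to 8.21 CPM in TAC. Under sildenafil the sums lay outside the range of TAC for endothelium (999 to 15676 CPM) and smooth muscle (4830 to 43177 CPM, against 70058 to 143366 CPM in TAC), and they ran from 20.9 to 387 CPM for erythroid markers, against 392.2 to 1068 CPM in TAC. For leukocytes the sums ran from 2061 to 3015 CPM, against 1115 to 2193 CPM in TAC, and for stromal cells from 443 to 841 CPM. These sums carry no GC correction. Between sildenafil and TAC 33.9% of the 561 single microRNAs did not overlap and 46.3% were called, in either direction. The lowest TAC+PDE9A-I sums, without sildenafil, were 3136 CPM for endothelium, 11580 CPM for smooth muscle and 52.5 CPM for erythroid markers. Of the endothelial pair miR-126a-5p was called lower (-3.28 ± 0.78, edgeR, adjusted p = 0.00323). miR-126a-3p was not (-1.12 ± 0.57, adjusted p = 0.116). The 2 smooth muscle markers went opposite ways, miR-143-3p lower (-2.37 ± 0.59, adjusted p = 0.00415) and miR-145a-5p higher (0.67 ± 0.22, adjusted p = 0.0199). So did the 4 heart muscle markers: miR-133a-3p rose (0.82 ± 0.25; edgeR, adjusted p = 0.0143), and falls were called for miR-499-5p (-2.37 ± 0.70), miR-208a-3p (-3.31 ± 0.78) and miR-1a-3p (-3.41 ± 0.90; edgeR, adjusted p = 0.0114, 0.00307 and 0.00632). The part of these markers in the levels of miR-9, miR-338 and miR-153 was not tested.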

How the data were processed

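Per the labels' protocols, total RNA from frozen left ventricle was made into TruSeq small RNA libraries and sequenced on an Illumina HiSeq. The authors deposited raw counts per mature microRNA in 1 table. The submitters' processing notes list Bowtie 1.1.1, cutadapt 1.8, DESeq 1.26.0 and CASAVA 1.8.4 but give them no role. The genome build and microRNA annotation are not stated in the sources used here. Of 25958 lines 24055 were blank, leaving 1903 microRNAs. The smallest count above 0 was 2, so a 0 may stand for fewer than 2 counts. Total counts ran from 1205417 to 8497792 per library. Limits for a count of 0 take 3 counts, which holds for a true 0. Where a 0 stands for 1 count, these limits are too low. The exact binomial intervals, of arm shares and pooled rates, cover counting error only. The intervals of log2 differences come from the SE of the edgeR fit, which includes the spread between libraries. The reads carry no molecular identifiers.

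The fits used edgeR 4.0.16 under R 4.3.3: filterByExpr by group (561 microRNAs), TMM scaling, a robust quasi-likelihood fit of all 4 groups, the quasi-likelihood F test and Benjamini-Hochberg adjustment over all 561, with calls at an adjusted p under 0.05. Similarity used log2 CPM with a prior count of 2. Each p-value measures the spread between mice. The members, the marker lists and the rule for named microRNAs were chosen with earlier results of these data known. The rule named all members, every neural microRNA that was called or had a mean of at least 10 CPM in any group, and the 3 microRNAs most like each main arm. miR-124 was named after its values were seen.

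The GC correction was a loess curve (span 0.75) of each library's deviations on the GC content of the mature sequence, used as an offset for the 487 tested microRNAs with a sequence in the RefSeq table (86.8%). Alternatives were other scalings, no filter, DESeq2 1.42.0, the 2 groups alone, ear tag range as a covariate, a replicate block, the GC correction, each library left out and, added after seeing the data, a fit of the 15 other libraries. The edgeR steps were tested on simulated counts.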

Additional observations from a re-analysis of the deposited data

Results flagged for a closer look

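miR-153-3p in TAC+PDE5A-I 1 measured 1.796 CPM while the other 4 libraries of the group were at 0, so 1 sample was set apart from 4 equal values, as any count above 0 would be. A count of 0 allows up to 2.17, 2.02 and 2.24 CPM in TAC+PDE5A-I 3, 4 and 5, so the value is not shown to differ from theirs. In TAC+PDE5A-I 2 it allows up to 0.671 CPM, which is below the value. Of 16 groups examined this was the only one with such a value, and chance gives about 1 in 20.

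The effects of the 2 drugs against TAC differed by the direct test between them (edgeR, adjusted over 561 microRNAs) for 3 arms. Sildenafil minus PF-04449613 was -4.31 for miR-153-3p, -1.05 for miR-338-3p and -1.22 for miR-9-5p on the log2 scale. Lower depth and higher GC content moved with these differences, and with the GC correction the value was -2.65 for miR-153-3p, 0.42 for miR-338-3p and 0.70 for miR-9-5p.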

How the results depend on the processing

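For TAC minus Sham the 4 arms kept their direction in all 20 alternatives. miR-153-3p ranged from -0.59 to -0.10 over the fits that leave out 1 library, with the smallest size without Sham 5. The 13 calls became 20 without the filter, 54 with DESeq2, 98 with the 2 groups alone, 4 with ear tag range, 23 with the GC correction, 81 in the fit of the 15 other libraries and 3 to 15 with 1 library left out. For sildenafil minus TAC, upper-quartile scaling gave -0.57 for miR-338-3p and -0.54 for miR-9-5p, ear tag range gave -0.83 for miR-9-5p, and the GC correction gave 0.82 for miR-338-3p, 1.64 for miR-9-5p and 151 calls against 260. Leaving out 1 library gave -1.56 to -0.83 for miR-9-5p, -0.052 to 0.57 for miR-338-5p and 165 to 280 calls, the fewest without TAC+PDE5A-I 3. For PF-04449613 minus TAC, where nothing was called, signs near 0 turned: miR-153-3p was 0.0036 in the fit of the 15 others, miR-338-3p was -0.075 without the filter, -0.031 with the 2 groups alone, -0.14 with the replicate block and -0.12 to 0.13 with 1 library left out, and miR-9-5p was -0.0074 with the block and -0.022 to 0.39 with 1 left out. The 0 calls became 1 with upper-quartile scaling, DESeq2 or the GC correction, 2 in the fit of the 15 others and 0 to 1 with 1 left out.

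For sildenafil minus PF-04449613, the 2 groups alone gave -4.45 for miR-153-3p, -1.19 for miR-338-3p, -1.35 for miR-9-5p and 0 calls against 195. The GC correction gave 0.42 for miR-338-3p, 0.46 for miR-338-5p, 0.70 for miR-9-5p and 69 calls, ear tag range gave 115 calls, and upper-quartile scaling gave 0.17 for miR-338-5p. With 1 library left out miR-338-5p ran from -0.53 to 0.0098 and the calls from 72 to 252. For sildenafil minus Sham, the GC correction gave -0.068 for miR-338-3p, 0.53 for miR-338-5p and 0.52 for miR-9-5p, and upper-quartile scaling 0.063 for miR-338-5p. For PF-04449613 minus Sham, DESeq2 gave -0.89 for miR-338-3p and -0.995 for miR-9-5p, the replicate block -1.04 and -1.24 (both past the threshold, adjusted p = 0.0329 and 0.0338), and the fit of the 15 others -0.71 for miR-338-3p. With 1 library left out the ranges were -0.97 to -0.68 for miR-338-3p, -1.12 to -0.80 for miR-9-5p and -0.33 to 0.030 for miR-338-5p, which was 0.069 with the GC correction. The 11 calls became 30 with total counts, 35 with DESeq2, 4 with the 2 groups alone, 1 with ear tag range, 42 in the fit of the 15 others and 7 to 31 with 1 left out. The causes were not tested.

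Other scalings moved the median of all microRNAs under sildenafil against TAC from -0.31 to 0.16 (upper quartile) and -0.46 (DESeq2-type factors), and the split of higher to lower calls from 121 and 139 to 172 and 110, and to 91 and 155. With the GC correction it was 104 and 47. The labels do not say whether mice with the same replicate number share a litter or day. Of 30 pairs of libraries with the same number, 7 had deviations correlated over 0.1 (range -0.21 to 0.35), and 4 of 21 libraries were closest to their own number. These correlations cannot exclude a shared litter or day. Depth limits the rare arms, miR-9-3p, miR-338-5p and, in the shallow libraries, miR-153-3p.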

Other observations

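miR-219c-5p, a relative of miR-219a-5p, had 96 to 306 counts in 6 libraries and 0 in the other 15. The 6 were Sham 1 and 5, TAC 2, and TAC+PDE9A-I 2, 3 and 6, so they belonged to 3 groups.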
